A study of Homo sapiens with 12 samples.

Results

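The combined treatment of HEK293 cells with oleic acid and ferric ammonium citrate (FAC, an iron salt) was compared with vehicle. Members were taken by label: the 3 libraries given both agents and the 3 vehicle libraries, 6 of the 12 in the series. The other libraries, 3 with oleic acid alone and 3 with FAC alone, were used to ask which genes moved only when both agents were given. HEK293 is an established human embryonic kidney line, and all cultures were of this line. The labels give neither doses nor the length of treatment, and the labels name no group with ammonium citrate alone, so what iron did and what the rest of FAC did cannot be told apart. The replicates are numbered and are not said to be separate cultures, so every p-value rests on the spread among libraries that may differ for technical reasons alone. The RNA integrity number was 10 throughout, and libraries were made from poly-A selected RNA.

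The series used FAC to induce ferroptosis, an iron-dependent form of cell death driven by peroxidation of membrane lipids. Oleic acid is a monounsaturated fatty acid, and cells that take it up can burn it in mitochondria, store it in lipid droplets or build it into membranes, where it is less easily peroxidised than polyunsaturated chains. Iron-loaded cells lower the transferrin receptor and raise ferritin protein through iron regulatory proteins, while fatty acids act as ligands of the peroxisome proliferator-activated receptors (PPARs). Immediate-early genes such as FOS and EGR1 encode transcription factors made within minutes of growth factor or stress signals, and CXCL1 and CXCL8 encode chemokines driven by nuclear factor kappa B (NF-kB).

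Library totals ran from 14098216 to 18717397 estimated counts, and 14209 of 36459 gene symbols had enough counts to be tested. Levels are given as CPM, the counts of a gene relative to the total of its library, which was first adjusted by the trimmed mean of M values (TMM). A count of 0 allows up to 3 counts, or 0.158 to 0.224 CPM, which covers counting error only. The third library with both agents stood apart: mitochondrially encoded genes took 12.1% of its counts against 3.33% to 7.50% in the other 11, and its TMM factor was 0.81. All 10 markers of HEK293 cells were tested, and their summed level was 1003 to 1381 CPM with vehicle and 1401 to 2059 CPM with both agents. Most of that sum was VIM, at 583 to 835 CPM with vehicle and 909 to 1428 CPM with both. VIM was highest in the third combined library and did not pass (log2 change 0.64, SE 0.23, adjusted p = 0.131). LHX1, a kidney transcription factor, was the 1 of the 10 markers to pass, where 1.03% of all genes rose. It rose by 0.56 (SE 0.13, adjusted p = 0.0350) on the log2 scale. Of the markers of other cells, 1 of 8 for fibroblasts, 5 of 8 for epithelium and 1 of 8 for endothelium were tested. For blood it was 2 of 9 and for hepatocytes 1 of 8, and none of those tested passed. FAP, TEK, CLDN5, HBB, SERPINA1 and CYP3A4 had no count in the 6 libraries. The most abundant members had counts. With vehicle and with both agents, COL1A1 was at 13.3 to 16.8 and 11.2 to 17.7 CPM. EPCAM was at 5.73 to 11.0 and 9.93 to 12.4 CPM, and TF at 6.24 to 8.80 and 5.32 to 7.66 CPM. ESAM and HBA1 were lower, at up to 1.32 and 1.63 CPM.

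With both agents, 436 genes changed against vehicle, 3.07% of those tested: 146 rose (1.03%) and 290 fell (2.04%). A gene counts as changed at an adjusted p under 0.05, from edgeR's quasi-likelihood F test over all 12 libraries with Benjamini-Hochberg adjustment over all genes tested. The changes were moderate, with a median absolute log2 fold change of 0.71 among the changed genes. At least 2-fold differences were seen for 37 of the genes that rose and 48 of those that fell. Genes of the iron, sterol, immediate-early and splicing kinase lists were among those that moved most, as the plot of the largest changes shows. In the same fit FAC alone changed 169 genes (1.19%; 0.457% up and 0.732% down), with the same vehicle libraries. Oleic acid alone changed 0, with 0 calls in DESeq2 and limma-voom. It had 118 genes at an unadjusted p under 0.05, fewer than the 710 expected if no gene changed. The p-values of this comparison were thus larger than those expected without any change. The 0 calls therefore do not show that oleic acid alone changed no gene.

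**Figure D1:**
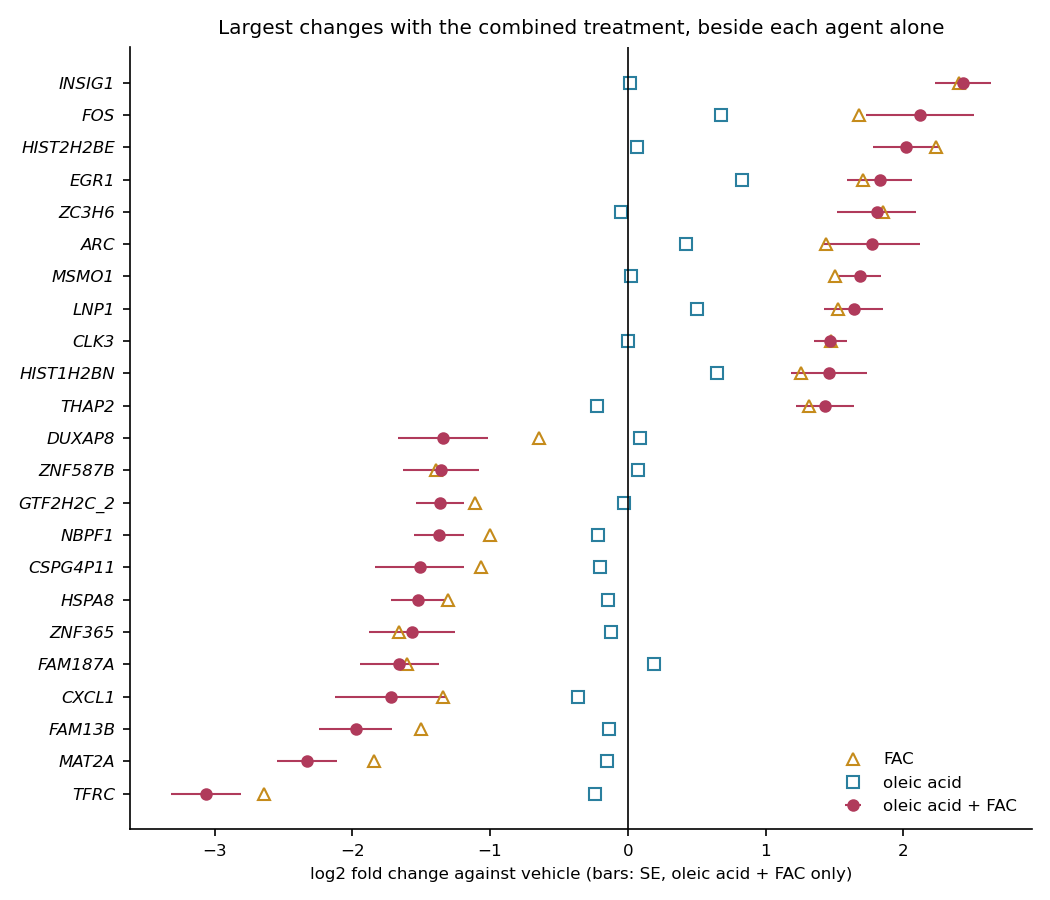
Log2 fold change against vehicle of genes among the highest and lowest changes with the combined treatment (filled circles, bars show the SE), beside FAC alone (triangles) and oleic acid alone (squares). TFRC is lowest at -3.06 and INSIG1 highest at 2.43, and the values of oleic acid alone lie between -0.36 and 0.83.

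The count of 436 depended strongly on single libraries, as the plot of counts by setting shows. It was 65 without vehicle replicate 2, 62 without vehicle replicate 3, 76 without replicate 2 of the combined treatment and 184 without its replicate 3, against 312 and 324 without replicate 1 of either group. Without the third oleic acid library, which is in neither group but enters the shared estimate of spread, it was 1026. The vehicle and combined libraries fitted alone gave 162, and 585 when the third combined library was also left out. Of 62 named genes that passed the test, 17 passed in all 6 fits that left out 1 of the compared libraries and in all 11 other alternatives. They are INSIG1, MSMO1, EGR1, HIST2H2BE, LNP1, THAP2, CLK3 and CLK4, which rose, and TFRC, MAT2A, FAM13B, HSPA8, SRSF6, JMJD4, PYCR3, NBPF1 and GTF2H2C_2, which fell. For most of the genes described below, the number of the 6 leave-one-out fits that they passed is given beside the result, with the highest adjusted p in those fits.

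**Figure D2:**
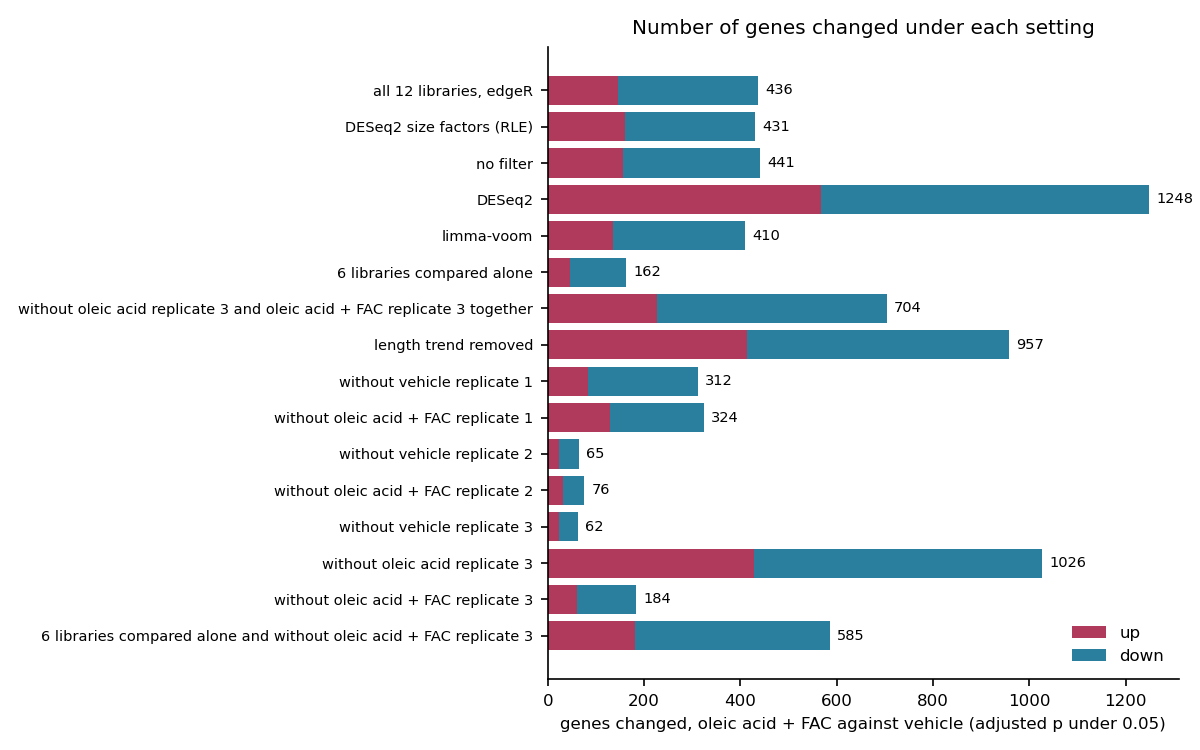
Number of genes that rose (red) and fell (blue) with the combined treatment against vehicle at an adjusted p under 0.05, for the settings named on the left, which leave out the fits with a replicate block. The bars drawn run from 62 without vehicle replicate 3 to 1248 in DESeq2, beside 436 with all libraries.

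Several immediate-early genes rose with the combined treatment. Of 24 members tested, 5 rose (FOS, EGR1, KLF6, KLF10 and MYC), where 1.03% of all genes did, and 0 fell. The list's median log2 fold change was 0.50 with both agents, 0.44 with FAC and 0.16 with oleic acid, against -0.00295 over all genes tested with both agents. FOS, a subunit of the AP-1 transcription factor (chromosome 14, 75278774 to 75282230, GENCODE 29 on GRCh38), was at 4.39, 2.84 and 5.12 CPM in vehicle replicates 1 to 3. With both agents it was at 10.9, 13.6 and 29.5 CPM, with FAC at 8.65, 12.7 and 18.2 CPM and with oleic acid at 5.90, 5.37 and 8.59 CPM. The combined and vehicle libraries did not overlap, and the third combined library was the highest of all 12. FOS rose by 2.12 (SE 0.39, adjusted p = 0.0162) on the log2 scale. It passed in 4 of 6 leave-one-out fits, failing without vehicle replicate 2 (adjusted p = 0.0863) or vehicle replicate 3 (0.0608). With FAC alone the change in FOS was 1.68 (adjusted p = 0.0578), which did not pass. Tested directly, FOS differed between both agents and FAC by 0.44 (SE 0.36, unadjusted p = 0.243), and its interaction was -0.23 (unadjusted p = 0.671). Of the 24 members, FAC alone raised 3 past the test, EGR1, KLF6 and MYC, where 0.457% of all genes rose with FAC.

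EGR1, a zinc-finger transcription factor induced by the ERK pathway (chromosome 5, 138465490 to 138469315), was at 28.6, 21.9 and 34.6 CPM with vehicle and 69.5, 108 and 125 CPM with both agents. Levels were 70.1, 99.1 and 108 CPM with FAC and 58.9, 46.1 and 46.5 CPM with oleic acid, so all 9 treated libraries lay above the 3 vehicle libraries. The rise with both agents was 1.83 (SE 0.24, adjusted p = 0.00218) on the log2 scale, and it held in all 6 leave-one-out fits (adjusted p up to 0.0199). The sum of the single-agent changes, 1.71 and 0.83, is larger than the combined one: the interaction was -0.71 (SE 0.32, unadjusted p = 0.0483, adjusted p = 1.00), which does not pass over all genes. ARC, an activity-regulated cytoskeletal gene outside that list, went from 11.2, 12.3 and 18.3 CPM to 40.4, 37.1 and 66.1 CPM, a rise of 1.77 (SE 0.35, adjusted p = 0.0193). It passed in 1 of 6 leave-one-out fits (adjusted p up to 0.0997). The change in ARC with FAC alone was 1.44 (adjusted p = 0.0686), which did not pass.

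The other 3 members rose by less. KLF6, a Krüppel-like factor, rose by 0.69 (SE 0.13, adjusted p = 0.0185) on the log2 scale and lay at 23.2 to 28.8 CPM with vehicle and 36.3 to 47.9 CPM with both. KLF10, a Krüppel-like factor induced by transforming growth factor beta, rose by 0.57 (SE 0.11, adjusted p = 0.0179) and lay at 42.1 to 49.9 CPM with vehicle and 67.6 to 74.7 CPM with both. The proto-oncogene MYC rose by 0.56 (SE 0.11, adjusted p = 0.0213) and lay at 155 to 178 CPM with vehicle and 221 to 281 CPM with both. Under FAC alone KLF6 rose by 0.76 and MYC by 0.60, both past the test, and KLF10 was at 0.34, which did not pass. With both agents, KLF6, KLF10 and MYC passed in 2, 2 and 3 of 6 leave-one-out fits (adjusted p up to 0.0854, 0.0991 and 0.122). All 3 calls were lost without vehicle replicate 2, vehicle replicate 3 or replicate 2 of the combined treatment. KLF6 was also lost without vehicle replicate 1, and KLF10 without replicate 3 of the combined treatment. Among 15 genes of the feedback on ERK, 1 rose, where 1.03% of all genes did. DUSP1, a phosphatase that switches off MAP kinases, rose by 0.50 (SE 0.11, adjusted p = 0.0263), in 1 of 6 leave-one-out fits (adjusted p up to 0.108).

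The sequence before the EGR1 start is shown because a serum response element there, the CArG box, is the textbook route from ERK signals to this gene. RefSeq gives 150 bases on chr5:138465329-138465478 (GRCh38.p14, plus strand), with 2 CArG boxes in capitals, whose first bases lie 105 and 83 bases before the start.
EGR1: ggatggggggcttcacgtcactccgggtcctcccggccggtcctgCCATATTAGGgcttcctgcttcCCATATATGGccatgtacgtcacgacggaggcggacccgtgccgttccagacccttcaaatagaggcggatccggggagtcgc
A CArG box on either strand of the 250 bases before the start was found in 1.16% of 35116 RefSeq windows and in 1.48% of the 10646 tested genes with a window. Among changed genes with a window, 5 of 103 that rose (4.85%) and 2 of 225 that fell (0.889%) had one. In the immediate-early list 3 of 19 windows had one, those of EGR1, EGR2 and SRF. These matches describe the letters and say nothing about binding.

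**Figure D3:**
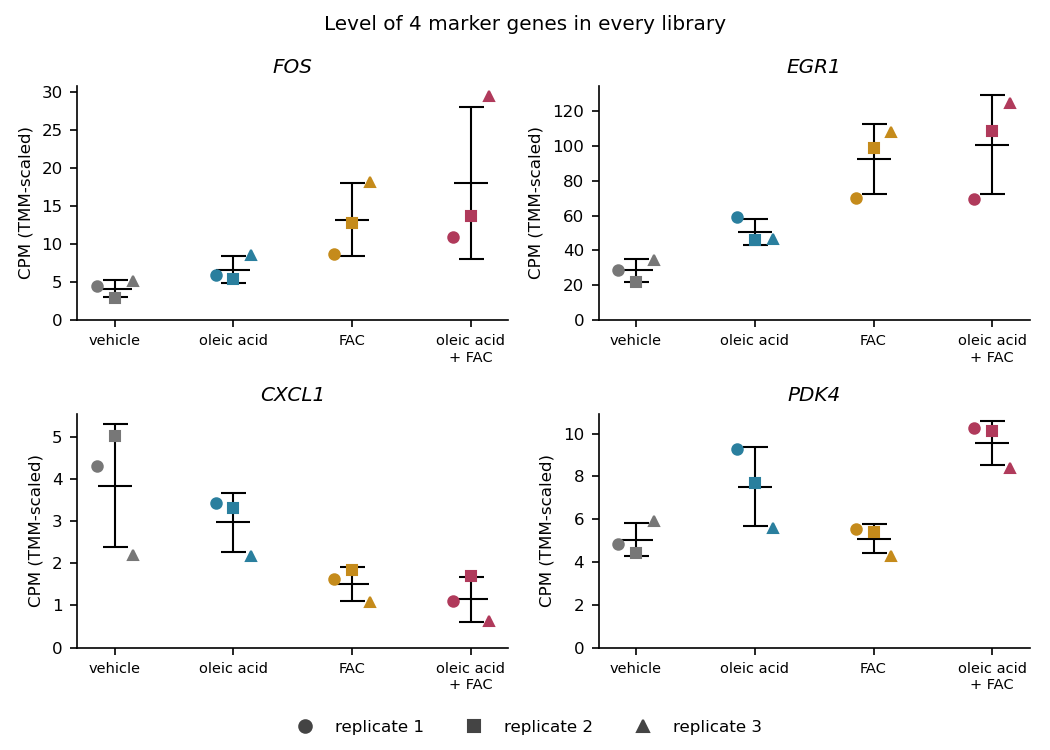
CPM of FOS, EGR1, CXCL1 and PDK4 in each of the 12 libraries (points, shaped by replicate number), with the mean and SD of each group of 3. With both agents FOS and EGR1 lie above and CXCL1 below the vehicle libraries, near the FAC libraries, while PDK4 lies at 8.38 to 10.2 CPM, above all FAC libraries.

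Chemokine genes were among those that fell. In the list of chemokines and NF-kB feedback genes, 2 of 17 members fell (CXCL1 and CXCL8), where 2.04% of all genes did, and 0 rose, and the median was -0.44 with both agents, -0.15 with FAC and 0.03 with oleic acid. Without the third combined library the median was -0.26 and no member passed. CXCL1, a neutrophil-attracting chemokine (chromosome 4, 73869393 to 73871242), was at 4.32, 5.04 and 2.20 CPM with vehicle and at 1.11, 1.70 and 0.639 CPM with both agents. It was at 1.63, 1.84 and 1.07 CPM with FAC and 3.44, 3.33 and 2.17 CPM with oleic acid. The vehicle and combined libraries did not overlap, and vehicle replicate 3, at 2.20 CPM, was close to the highest combined library. CXCL1 was 3.29-fold lower, or -1.72 (SE 0.40, adjusted p = 0.0385) on the log2 scale. It passed in 0 of the 6 leave-one-out fits (adjusted p from 0.0547 to 0.172), so the call was lost when any 1 library was left out. CXCL8, the interleukin-8 gene, went from 7.72, 5.50 and 4.35 CPM to 2.62, 2.38 and 2.27 CPM, with 1.76, 1.84 and 0.955 CPM under FAC alone. Its log2 fold change was -1.27 (SE 0.28, adjusted p = 0.0290) with both agents and -1.94 (adjusted p = 0.00820) with FAC alone. With both agents it too passed in 0 of 6 leave-one-out fits (adjusted p up to 0.107).

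Both genes carry the same kappa B element just before their starts, shown here as the classical NF-kB site of these chemokines. RefSeq gives CXCL1 on chr4:73869243-73869392 and CXCL8 on chr4:73740419-73740505 (GRCh38.p14, plus strand), with GGAATTTCC in capitals, its first base 78 and 91 bases before the start. The CXCL8 stretch stops where the GENCODE 29 gene begins.
CXCL1: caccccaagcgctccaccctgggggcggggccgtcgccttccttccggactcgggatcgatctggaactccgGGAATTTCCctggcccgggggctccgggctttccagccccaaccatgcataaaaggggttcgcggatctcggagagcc
CXCL8: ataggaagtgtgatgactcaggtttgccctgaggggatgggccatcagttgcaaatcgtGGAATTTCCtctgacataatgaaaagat
The letters GGAATTTCC, on either strand of the 250 bases before the start, were in 0.413% of all windows and 0.535% of tested genes. They were in 0 of 103 windows of genes that rose and in 2 of 225 (0.889%) of genes that fell, CXCL1 and CXCL8. In the chemokine list 9 of 16 windows held them: those of CXCL1, CXCL2, CXCL3, CXCL8, CXCL10, NFKBIA, NFKBIZ, NFKB1 and ICAM1.

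In 4 lists of fatty acid use 1 member each passed the test with both agents, where 3.07% of all genes passed. In the list of PPAR-responsive genes 1 of 16 rose (PDK4), in beta-oxidation 1 of 30 (ECH1) and in fatty acid synthesis 1 of 19 (ELOVL6). In acyl-CoA activation 1 of 16 fell (SLC27A4), and of lipid droplet and triglyceride genes 0 of 19 passed. Without the third combined library no member of any of these lists passed. PDK4, a mitochondrial kinase that shuts off pyruvate dehydrogenase and is a textbook PPAR target (chromosome 7, 95583499 to 95596491), was at 4.82, 4.40 and 5.89 CPM with vehicle and 10.2, 10.1 and 8.38 CPM with both agents. Oleic acid alone gave 9.28, 7.68 and 5.60 CPM and FAC alone 5.53, 5.42 and 4.30 CPM. All 3 combined libraries lay above all vehicle and FAC libraries, and they overlapped with the oleic acid libraries. The change was 0.93 (SE 0.21, adjusted p = 0.0321) with both agents, 0.58 (SE 0.21, adjusted p = 1.00) with oleic acid and 0.01 (SE 0.21, adjusted p = 0.994) with FAC. Tested directly, PDK4 was higher with both agents than with FAC by 0.91 (SE 0.21), at an unadjusted p of 7.74e-04 and an adjusted p of 0.707. The call against vehicle was lost in each of the 6 leave-one-out fits (adjusted p from 0.0520 to 0.154).

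ECH1, a dienoyl-CoA isomerase that serves the oxidation of unsaturated fatty acids, was like PDK4 in that all 3 combined libraries lay above all vehicle and FAC libraries. By replicate the 2 genes differed: from replicate 1 to 3 ECH1 rose and PDK4 fell, both with oleic acid and with both agents. ECH1 was at 69.8, 70.4 and 57.4 CPM with vehicle, 70.3, 85.9 and 110.0 CPM with oleic acid, 68.7, 70.1 and 71.9 CPM with FAC and 86.6, 118 and 127 CPM with both. It rose by 0.75 (SE 0.17, adjusted p = 0.0354) with both agents, and the single-agent changes were 0.43 with oleic acid and 0.09 with FAC, neither of which passed. ECH1 passed in 1 of 6 leave-one-out fits (adjusted p up to 0.178). The elongase ELOVL6 rose by 0.52 (SE 0.11, adjusted p = 0.0263), and the fatty acid transporter SLC27A4 fell (log2 change -0.45, SE 0.11, adjusted p = 0.0474). ELOVL6 passed in 0 and SLC27A4 in 1 of the 6 leave-one-out fits (adjusted p up to 0.132 and 0.181). CPT1A, which admits fatty acids to mitochondria, did not pass, at 29.8 to 42.0 CPM with vehicle and 35.9 to 56.9 CPM with both agents (0.44, adjusted p = 0.200). SCD, the desaturase that makes oleic acid, and the acyl-CoA synthetases ACSL3 and ACSL4 had log2 fold changes of 0.19, 0.11 and 0.06, with adjusted p from 0.511 to 0.855.

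PLIN2, which coats lipid droplets and is a PPAR target (chromosome 9, 19108375 to 19149290), was the gene with the smallest p in the comparison of both agents with FAC alone. Its level was 16.2, 15.5 and 14.8 CPM with vehicle, 17.1, 19.4 and 18.0 CPM with oleic acid, 9.62, 8.63 and 10.1 CPM with FAC and 16.8, 14.8 and 16.6 CPM with both. The 3 FAC libraries lay below the other 9, and the combined libraries overlapped with vehicle. PLIN2 fell with FAC alone, with a log2 change of -0.71 (SE 0.12, adjusted p = 0.0146), while the value with both agents was 0.05 (SE 0.12, adjusted p = 0.827). The FAC call was lost in all 6 fits without 1 of the vehicle or FAC libraries (adjusted p from 0.0518 to 0.0713). The difference between both agents and FAC was 0.76 (SE 0.12, unadjusted p = 2.86e-05), and it did not pass in edgeR (adjusted p = 0.406). DESeq2 called this gene and no other in that comparison (0.76, SE 0.14, adjusted p = 0.00140). The interaction for PLIN2 was 0.53 (SE 0.17, unadjusted p = 0.00760, adjusted p = 1.00). None of 19 tested lipid droplet and triglyceride genes passed with both agents, and their median was 0.04. Of the 19, 3 had an unadjusted p under 0.05, beside 22.3% of all genes tested. DESeq2 called 1 of them, beside 9.61% of the genes it tested.

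Iron handling was marked by TFRC, the transferrin receptor that imports iron (chromosome 3, 196027183 to 196082189). It was at 113, 134 and 119 CPM with vehicle, 19.7, 22.1 and 16.8 CPM with FAC and 16.3, 14.0 and 13.3 CPM with both agents, so the combined libraries lay below all others. TFRC was 8.36-fold lower with both agents, or -3.06 (SE 0.26, adjusted p = 1.07e-04) on the log2 scale, and passed in all 6 leave-one-out fits (adjusted p up to 0.00240). With FAC alone the change was -2.64, and the direct difference between both agents and FAC was -0.42 (SE 0.25, unadjusted p = 0.111). TFRC was the 1 gene of 19 iron uptake, storage, export and sensing genes to pass, where 3.07% of all genes passed. The ferritin genes did not pass: FTH1 was at 353 to 439 CPM with vehicle and 462 to 668 CPM with both (0.51, adjusted p = 0.120), and FTL at 309 to 459 and 492 to 801 CPM (0.68, adjusted p = 0.150). The iron exporter SLC40A1 was at 4.75 to 5.73 and 1.70 to 3.67 CPM (-0.95, adjusted p = 0.119).

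Of 24 genes of ferroptosis and glutathione defence, TFRC fell and SAT1 rose, where 3.07% of all genes passed, and the median was 0.04. SAT1, a polyamine acetyltransferase, went from 19.7, 28.4 and 24.8 CPM to 32.1, 48.2 and 60.2 CPM, a rise of 0.94 (SE 0.23, adjusted p = 0.0417) that passed in 1 of 6 leave-one-out fits (adjusted p up to 0.159). Its change with FAC alone was 0.98 (adjusted p = 0.0582), which did not pass. GPX4, the peroxidase that repairs membrane lipids, was at 0.51 on the log2 scale (adjusted p = 0.148), and the cystine importer SLC7A11 had -0.67 (adjusted p = 0.104). Transcripts often read as ferroptosis markers did not pass either: CHAC1, a glutathione-degrading enzyme, had -0.57 (adjusted p = 0.350) and the cyclooxygenase gene PTGS2 -0.62 (adjusted p = 0.412). CHAC1 was at 5.50, 5.50 and 6.17 CPM with vehicle, 1.30, 1.95 and 2.86 CPM with FAC and 2.62, 2.84 and 6.18 CPM with both, and the third combined library overlapped with vehicle. HMOX1, heme oxygenase 1, was at 7.99 to 15.1 and 9.93 to 19.3 CPM (0.27, adjusted p = 0.708). None of 22 NRF2 targets, 30 genes of the ATF4 stress response or 20 of iron-sulfur cluster assembly passed, with 10, 8 and 4 at an unadjusted p under 0.05 and 4, 4 and 1 called in DESeq2. Of all genes tested, 22.3% had an unadjusted p under 0.05 and DESeq2 called 9.61% of the 12987 it tested. ALAD, an enzyme of heme synthesis, fell (log2 change -0.59, SE 0.14, adjusted p = 0.0370), the 1 of 16 heme genes to pass, and it passed in 0 of 6 leave-one-out fits (adjusted p up to 0.167).

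Sterol genes were the list with the most members changed. Of 27 genes of cholesterol synthesis and uptake, 7 rose, INSIG1, MSMO1, IDI1, SQLE, DHCR7 and FDFT1 among them, where 1.03% of all genes did. In this list 0 fell, and the median was 0.30 with both agents, 0.25 with FAC and -0.02 with oleic acid. INSIG1, which retains the sterol sensor SCAP in the endoplasmic reticulum, was at 85.0, 59.7 and 92.6 CPM with vehicle and 356, 439.6 and 488 CPM with both agents. It rose 5.40-fold, or 2.43 (SE 0.20, adjusted p = 1.07e-04) on the log2 scale, beside 2.40 with FAC and 0.01 with oleic acid. MSMO1, a demethylating oxidase of the pathway, was at 59.5, 38.1 and 45.2 CPM with vehicle and 142, 164 and 153 CPM with both, and rose by 1.68 (SE 0.15, adjusted p = 1.86e-04). Both genes passed in all 6 leave-one-out fits, and in both the vehicle and combined libraries did not overlap. IDI1, the isopentenyl diphosphate isomerase, rose by 1.10 (SE 0.19, adjusted p = 0.0138), and it passed in 3 of 6 leave-one-out fits (adjusted p up to 0.0800). The epoxidase SQLE rose by 0.93 (SE 0.14, adjusted p = 0.00474), DHCR7 by 0.52 (SE 0.13, adjusted p = 0.0469) and the squalene synthase FDFT1 by 0.50 (SE 0.12, adjusted p = 0.0406). Without the third combined library 7 members also rose.

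Genes of the methionine, heat shock, proline and dioxygenase lists also fell, 1 or 2 in each, where 2.04% of all genes did. MAT2A, which makes S-adenosylmethionine, was at 189, 255 and 263 CPM with vehicle, 51.3, 86.8 and 59.3 CPM with FAC and 54.3, 47.8 and 38.8 CPM with both. It was 5.02-fold lower with both agents (log2 change -2.33, SE 0.22, adjusted p = 2.08e-04), and it was the 1 of 15 methionine cycle genes to pass. The constitutive chaperone HSPA8 was at 1007, 1218 and 1161 CPM with vehicle and 437, 411 and 331 CPM with both, a difference of -1.52 (SE 0.20, adjusted p = 0.00218) on the log2 scale. Its co-chaperone DNAJA1 fell too (log2 change -0.90, SE 0.21, adjusted p = 0.0355), with 1 of 6 leave-one-out fits passed (adjusted p up to 0.157). These were the 2 of 17 heat shock genes to pass, and the list's median was 0.01, or -0.09 without the third combined library. PYCR3, a reductase of proline synthesis, fell (log2 change -1.24, SE 0.12, adjusted p = 4.39e-04), with 22.2 to 27.8 CPM under vehicle and 10.2 to 10.9 CPM under both, the 1 of 8 proline genes to pass. Among 30 iron- and 2-oxoglutarate-dependent dioxygenases 2 fell. JMJD4 lay at 46.9 to 58.8 CPM with vehicle and 22.3 to 25.4 CPM with both (log2 change -1.17, SE 0.12, adjusted p = 6.80e-04). HIF1AN, the asparaginyl hydroxylase of hypoxia-inducible factor (HIF), lay at 76.6 to 88.9 CPM with vehicle and 48.2 to 57.4 CPM with both (log2 change -0.66, SE 0.12, adjusted p = 0.0156). HIF1AN passed in 3 of 6 leave-one-out fits (adjusted p up to 0.0880), and MAT2A, HSPA8, PYCR3 and JMJD4 in all 6. These genes also fell and passed with FAC alone. There the log2 fold changes were -1.84 for MAT2A, -1.31 for HSPA8, -0.97 for DNAJA1, -1.43 for PYCR3, -1.37 for JMJD4 and -0.55 for HIF1AN.

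Splicing regulators moved in both directions. Of 12 splicing kinases 4 rose: CLK3, CLK4, CLK1 and DYRK1B, where 1.03% of all genes rose and 2.04% fell. CLK3, a CDC-like kinase that phosphorylates SR splicing factors, was at 23.2, 24.3 and 23.6 CPM with vehicle and 58.3, 66.7 and 72.0 CPM with both, a rise of 1.47 (SE 0.12, adjusted p = 1.07e-04), and its SE was the smallest of the 12 largest rises. CLK4 rose by 1.30 (SE 0.14, adjusted p = 9.01e-04), CLK1 by 0.69 (SE 0.17, adjusted p = 0.0467) and DYRK1B by 0.68 (SE 0.15, adjusted p = 0.0263). CLK3 and CLK4 passed in all 6 leave-one-out fits, CLK1 in 0 and DYRK1B in 2 (adjusted p up to 0.132 and 0.140). SRSF6, an SR protein, fell from 271, 252 and 268 CPM to 117, 105 and 130.3 CPM (log2 change -1.16, SE 0.10, adjusted p = 1.86e-04), the 1 of 14 to pass. The SR list's median was -0.24 with both agents and -0.44 with FAC, and without the third combined library it was -0.44 with both, with 3 members past the test. Under FAC alone CLK3 rose by 1.48 and CLK4 by 1.36, and SRSF6 was at -1.15, all past the test. CLK1 and DYRK1B were then at 0.75 and 0.55, which did not pass.

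Some histone, p53 target and cell cycle genes rose, where 1.03% of all genes did. Of 18 histone genes tested 4 rose (HIST2H2BE, HIST1H2AC, HIST2H4B and HIST3H2A), all 18 log2 fold changes were above 0 and the median was 0.86. It was 0.67 without the third combined library, when 1 member passed, and 0.47 with the length trend removed, when 3 passed. With FAC alone the median was 0.64. HIST2H2BE and HIST2H4B then rose by 2.24 and 1.63, both past the test, and HIST1H2AC and HIST3H2A were at 1.66 and 0.77, which did not pass. HIST2H2BE was at 2.16, 1.74 and 1.60 CPM with vehicle and 8.09, 6.19 and 8.09 CPM with both (log2 change 2.02, SE 0.24, adjusted p = 0.00148), and passed in all 6 leave-one-out fits. HIST1H2AC passed in 0, HIST2H4B in 1 and HIST3H2A in 2 of those fits, with adjusted p up to 0.177, 0.165 and 0.122. Most replication-dependent histone messages lack a poly-A tail, and histone genes have near-identical copies among which reads can be split, so these values are uncertain. The p53 target BBC3, an apoptosis gene also called PUMA, rose (log2 change 1.08, SE 0.17, adjusted p = 0.00598), with 22.6 to 26.7 CPM under vehicle and 51.6 to 55.6 CPM under both, the 1 of 22 p53 targets to pass, and among the leave-one-out fits it was lost only without vehicle replicate 3 (adjusted p = 0.0526). Of 20 cyclins and CDK inhibitors, CDKN1B rose by 0.45 (SE 0.10, adjusted p = 0.0263) and CDC25A, a phosphatase that activates cyclin-dependent kinases, by 0.45 (SE 0.10, adjusted p = 0.0273). These 2 passed in 2 and 0 of the 6 leave-one-out fits (adjusted p up to 0.132 and 0.147). Under FAC alone BBC3 rose by 0.90 (adjusted p = 0.0209), while CDKN1B and CDC25A were at 0.36 and 0.40, which did not pass.

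Across the 32 pathway lists, 40 of 662 genes tested changed, 28 up and 12 down, or 6.04% (4.23% up and 1.81% down), beside 3.07% of all genes tested (1.03% up and 2.04% down). In 12 lists no member changed, and 134 of their 321 members (41.7%) had an unadjusted p under 0.05, beside 22.3% of all genes tested. Most of the 134 came from 2 lists, 58 of 58 ribosomal protein genes and 36 of 60 nuclear oxidative phosphorylation genes. Each other list held 0 to 10, so the pooled share does not describe the 12 lists alike. In 3 of those the members lay mostly on one side without passing. All 58 ribosomal protein genes had a log2 fold change above 0, with a median of 0.63, and 58 of 60 nuclear genes for oxidative phosphorylation did, with a median of 0.48. Of 13 mitochondrially encoded mRNAs 12 did, with a median of 0.80. The single agents also put many members above 0. With FAC alone these were 58, 57 and 7 members of the 3 lists, with medians of 0.19, 0.14 and 0.06. With oleic acid alone they were 58, 52 and 13, with medians of 0.22, 0.19 and 0.31. Without the third combined library, the one richest in mitochondrial counts, the medians with both agents were 0.42, 0.29 and 0.13. With the length trend removed from each library they were 0.43, 0.23 and 0.30. Calls in these lists depended on the tool: in edgeR 58 ribosomal, 36 oxidative phosphorylation and 0 mitochondrially encoded members had an unadjusted p under 0.05 and none passed, while DESeq2 called 42, 9 and 0 up. The share of counts from mitochondrial genes was 3.33%, 7.50% and 12.1% in the 3 combined libraries and 4.32% to 6.32% with vehicle. Its part in these values was not tested.

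**Figure D4:**
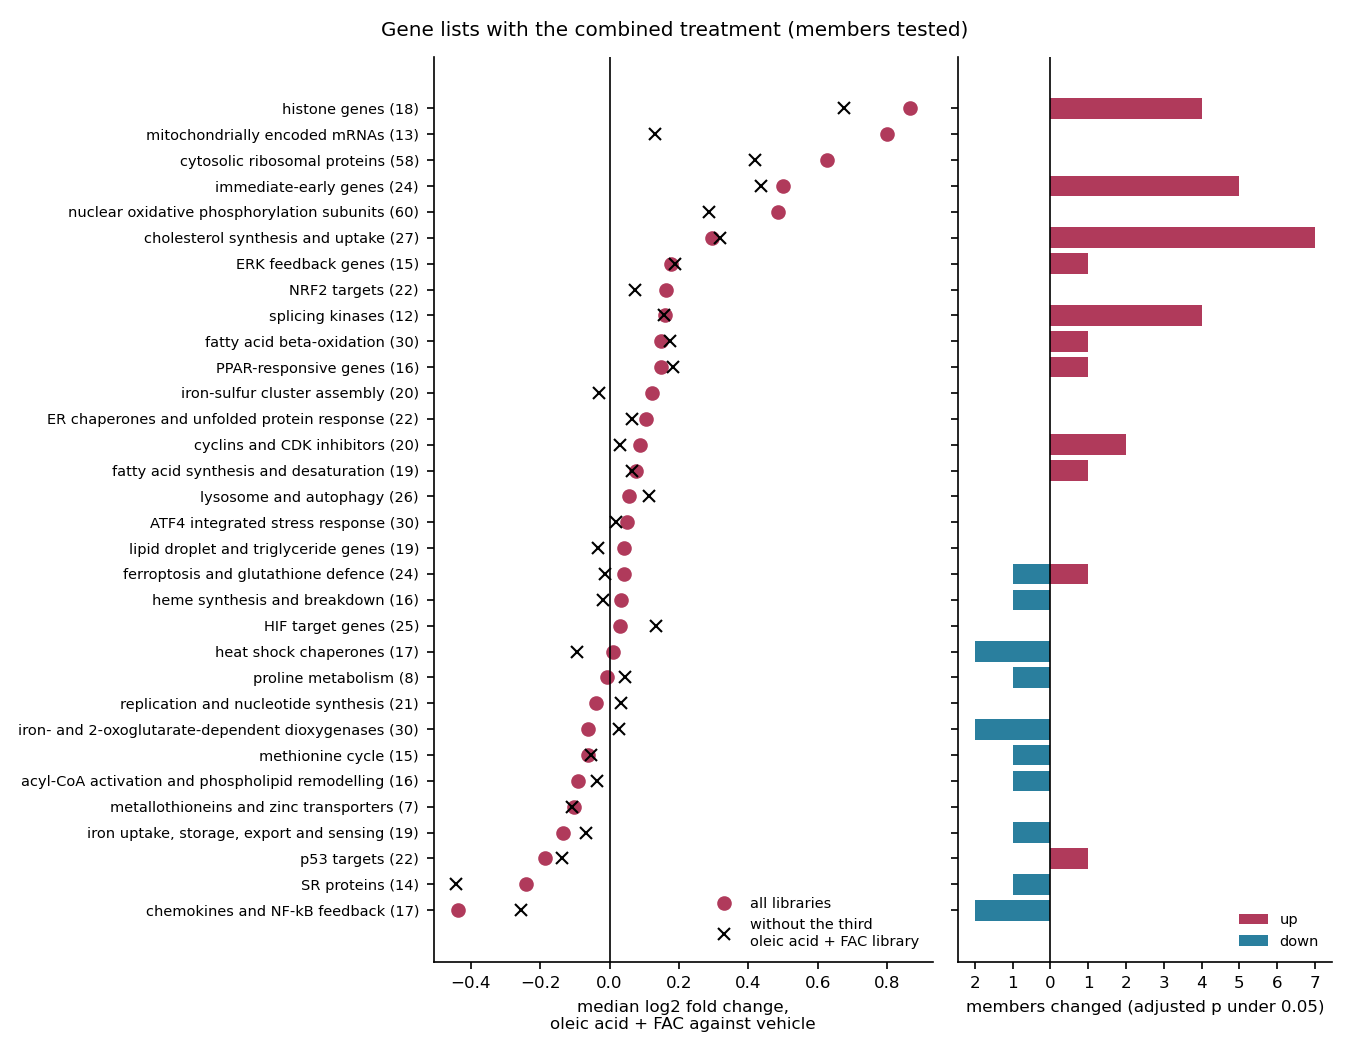
Left, median log2 fold change of each list with the combined treatment against vehicle, with all libraries (circles) and without the third combined library (crosses). Right, number of members that rose (red) or fell (blue) at an adjusted p under 0.05, from 7 sterol genes down to none in 12 lists; the medians of mitochondrially encoded and ribosomal protein genes move most when that library is left out, from 0.80 to 0.13 and from 0.63 to 0.42.

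Of the 436 genes changed by the combined treatment, 298 (2.10% of genes tested) passed in neither single-agent comparison, 97 up and 201 down. The other 138 also passed with FAC alone. Passing with both agents and not with 1 does not show a difference, and neither the test against FAC alone nor the interaction passed for any of the 298. Directly against FAC alone 0 of all 14209 genes passed (smallest adjusted p = 0.406, with 576 at an unadjusted p under 0.05), and DESeq2 called 1, PLIN2, and limma-voom 0. The interaction of the agents called 0 (smallest adjusted p = 1.00), with 116 genes at an unadjusted p under 0.05, 7 of them among the 298, and DESeq2 and limma-voom also called 0. If no gene changed, 710 would be expected at an unadjusted p under 0.05, and the counts of 576 and 116 are both below that. The p-values of these 2 tests were thus larger than those expected without any difference. Their 0 calls therefore do not show that no gene differed. Against oleic acid alone 314 genes passed (2.21%; 0.76% up and 1.45% down), 137 of the 298 among them. The combined, FAC and oleic acid comparisons share their vehicle libraries, so their values are given side by side only. Among the 97 genes that rose, the median log2 fold change was 0.67 with both agents, 0.47 with FAC and 0.08 with oleic acid. Among the 201 that fell it was -0.67, -0.47 and -0.09. Where annotated, the longest transcript had a median of 3030 bases in the 97 and 4486 in the 201, beside 3666 over all genes tested. The part of length in these calls was not tested. The count of 298 depended on single libraries, and so did the genes in it. Without vehicle replicate 2 it was 37, of which 7 were among the 298, and without vehicle replicate 3 it was 38, of which 5 were. Without replicate 2 of the combined treatment it was 24, with 18 of the 298, and without its replicate 3 it was 41, with 33. Without the third oleic acid library it was 766, with 223 of the 298.

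A narrower set was chosen from these values: all 3 combined libraries on one side of the other 9, and a change at least 2 times that of each single agent. It held 29 genes (0.204% of genes tested), 9 up and 20 down, of which 25 reached a mean log2 CPM of 1. The 6 highest and 6 lowest changes among these 25 are described below. The first condition alone was met by 82 of the 298 and by 288 of all genes (2.03%), and 28.2% of all genes had no overlap between the combined and vehicle libraries. Since the readouts chose the 29, their values are a description with no test. The medians were 0.56 with both agents, 0.28 with FAC and 0.14 with oleic acid for the 9 that were higher, and -0.76, -0.30 and -0.12 for the 20 that were lower. Of the 29, 3 had an unadjusted interaction p under 0.05.

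Among those that were lower, VHL, the ubiquitin ligase subunit that marks HIF for degradation, was at 31.9, 48.1 and 41.9 CPM with vehicle and 22.0, 20.6 and 14.8 CPM with both agents. Oleic acid gave 41.3, 41.5 and 23.3 CPM and FAC 25.4, 43.7 and 27.6 CPM. The third oleic acid library, at 23.3 CPM, was close to the highest combined library. The log2 fold change was -1.08 with both agents, -0.33 with FAC and -0.20 with oleic acid. The call for VHL against vehicle passed in 1 of 6 leave-one-out fits, the one without vehicle replicate 1 (adjusted p up to 0.183 in the others). None of 25 HIF target genes passed, and their median was 0.03. Of the 25, 2 had an unadjusted p under 0.05, beside 22.3% of all genes tested. DESeq2 called 1 of them, beside 9.61% of the genes it tested. VGLL2, a cofactor of TEAD transcription factors, had the tightest combined libraries, at 1.11, 1.14 and 1.14 CPM against 2.53, 2.49 and 2.20 CPM with vehicle and 1.69, 1.68 and 1.79 CPM with FAC. TOP3B, a topoisomerase that acts on DNA and RNA, was at 26.8, 29.7 and 30.3 CPM with vehicle and 16.1, 16.4 and 12.1 CPM with both. DMWD was at 33.0, 40.0 and 42.9 CPM with vehicle and 23.5, 24.9 and 16.3 CPM with both, and replicate 3 with both agents was the lowest. ANKRD26 and HOOK2, an adaptor of microtubule motors, had log2 fold changes of -0.96 and -1.07.

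Those that were higher had smaller changes. RPL22L1, a ribosomal protein paralog, was at 40.8, 36.5 and 32.3 CPM with vehicle, 42.3, 41.5 and 52.0 CPM with oleic acid, 44.3, 43.2 and 47.8 CPM with FAC and 55.4, 56.7 and 73.1 CPM with both. COMMD10 was at 12.6, 12.6 and 12.2 CPM with vehicle and 19.0, 17.9 and 24.0 CPM with both, and COQ10B, a coenzyme Q binding protein of mitochondria, at 16.6, 13.8 and 15.1 CPM with vehicle and 20.7, 21.1 and 31.7 CPM with both. In all 3 genes the third combined library was the highest of the 12. CDKAL1, which modifies a lysine transfer RNA, was at 21.9, 19.3 and 22.2 CPM with vehicle and 29.9, 31.3 and 32.3 CPM with both, with its combined libraries close together. FKBP7, a prolyl isomerase, and C16orf87 had log2 fold changes of 0.53 and 0.52. Of the 12 genes named here, none passed in all 6 leave-one-out fits against vehicle, and RPL22L1 passed in the most, 4.

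**Figure D5:**
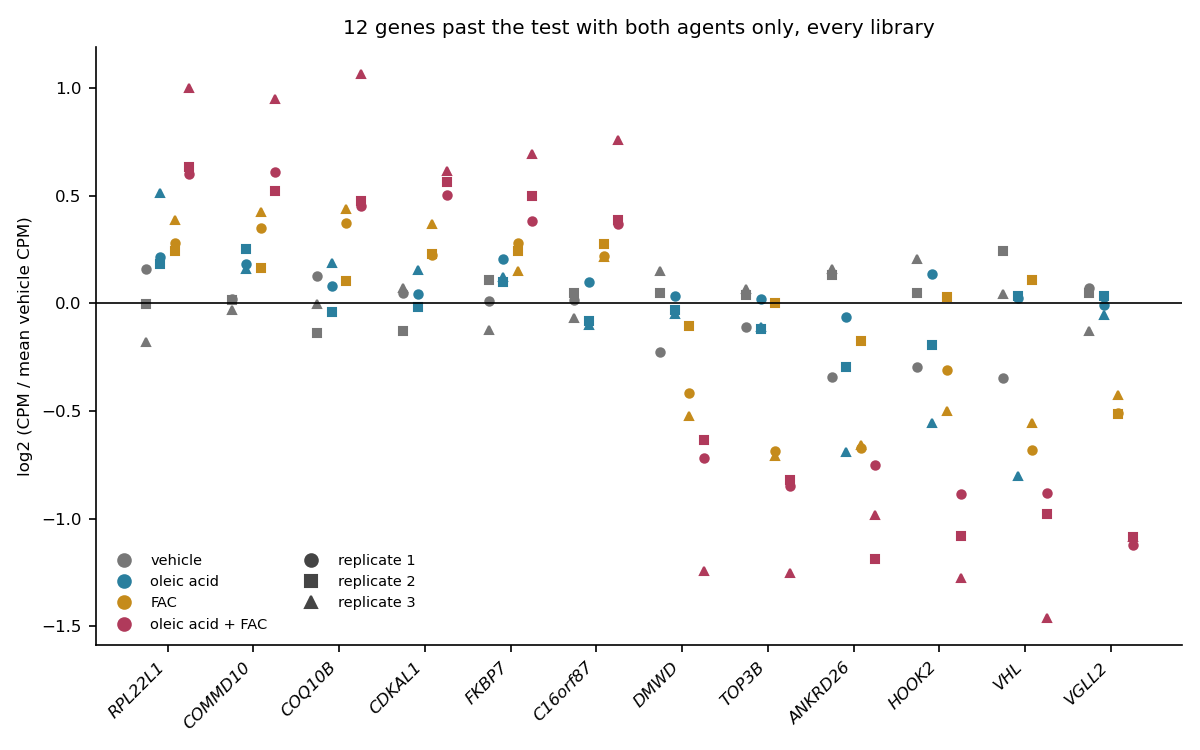
Level of 12 genes that passed with both agents and in neither single-agent comparison, as log2 of CPM over the mean vehicle CPM, in each of the 12 libraries (color for the group, shape for the replicate number). The combined libraries lie beyond the other 9 by construction, and in 10 of the 12 genes the third combined library is the farthest from vehicle.

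Ranked by the interaction itself, the 5 genes with the smallest unadjusted p at a mean log2 CPM of at least 1 were PSMC1P1, PLIN2, SORD2P, SMG1P3 and LHX8, and the adjusted p was 1.00 for each. PSMC1P1, SORD2P and SMG1P3 are pseudogenes that share reads with their parent genes, so their counts are uncertain. PSMC1P1 was at 4.20, 3.65 and 0 CPM with vehicle and 0.291, 0.114 and 0 CPM with both, and the third vehicle library had no count, so the groups overlap. LHX8, a developmental transcription factor, was at 3.71, 3.24 and 2.92 CPM with vehicle, 2.57, 2.52 and 1.72 CPM with oleic acid, 1.95, 2.00 and 1.91 CPM with FAC and 2.62, 2.84 and 2.56 CPM with both.

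Several of the largest changes were in genes without a place in these lists. ZC3H6, a zinc finger gene, rose by 1.81 (SE 0.29, adjusted p = 0.00733) and lay at 4.63 to 7.12 CPM with vehicle and 15.9 to 22.3 CPM with both. LNP1 rose by 1.64 (SE 0.21, adjusted p = 0.00224) and THAP2 by 1.43 (SE 0.21, adjusted p = 0.00474). FAM13B fell from 37.8, 47.9 and 47.4 CPM to 13.5, 10.4 and 9.87 CPM (log2 change -1.98, SE 0.27, adjusted p = 0.00280). FAM187A had -1.66, ZNF365 -1.57 and ZNF587B -1.36 on the log2 scale, all past the test. These genes also passed with FAC alone. There ZC3H6, LNP1 and THAP2 rose by 1.85, 1.52 and 1.31, and FAM13B, FAM187A, ZNF365 and ZNF587B were at -1.50, -1.60, -1.66 and -1.39. NBPF1 (-1.37) and GTF2H2C_2 (-1.36) fell in all 6 leave-one-out fits, but they belong to families with near-identical copies, and reads may be split among them. The same holds for CSPG4P11 (-1.51), DUXAP8 (-1.34) and the histone gene HIST1H2BN (1.46). Against the loss of 1 library, DUXAP8 passed in 0 fits, ZNF365, ZNF587B, CSPG4P11 and HIST1H2BN in 2 each, and ZC3H6 and FAM187A in 5.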

How the data were processed

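RNA sequencing libraries of HEK293 cells with vehicle, oleic acid, FAC or both were used, 3 per group, grouped by their treatment labels. Per the labels, the deposited table holds estimated counts per gene from kallisto, made with version 0.46.1 on GRCh38.p12 (hg38) per the submitters' processing notes, which also list bcl2fastq 2.19 and sleuth 0.30.0. All values were already whole numbers. The transcript table was not used here. Coordinates and lengths came from GENCODE 29, where 97.1% of symbols were found, and promoters from RefSeq on GRCh38.p14.

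Genes passing filterByExpr of edgeR 4.0.16 (R 4.3.3) at its defaults entered 1 quasi-likelihood fit with TMM scaling and 4 group means, tested by two-sided F tests. SE is the absolute log2 fold change over the root of F. The steps were tested on simulated data. Alternatives were DESeq2 1.42.0, its size factors, limma-voom 3.58.1, no filter, a replicate block, only the groups compared, a lowess correction of span 0.3 for transcript length, and left-out libraries. Replicates differed by more than counting noise (8.40 to 126 times, as chi-square over its degrees of freedom).

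Members and lists were chosen with earlier results of these data known. Named were FOS, EGR1, CXCL1 and PDK4, the 12 highest and 12 lowest changes, 6 and 6 genes passing with both agents only, up to 4 changed members per list, fixed iron and lipid genes, the top member of each marker list, and the 5 smallest interaction p. The changed list members past the fourth, LHX1, and the 17 most stable genes as a group are given beyond this rule. 1 gene that the rule names is not reported here.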

Additional observations from a re-analysis of the deposited data

How the results depend on the processing

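Against the 436 genes changed with both agents, DESeq2 size factors gave 431, no filter 441 and limma-voom 410, while DESeq2 gave 1248, the groups compared alone 162, leaving out replicate 3 of oleic acid and of both agents together 704, and removing the length trend 957. Leaving out 1 compared library gave 62 to 324. Without the third oleic acid library the count was 1026, and with the groups compared alone and without the third combined library 585. These last 2 were chosen after seeing the data. The share of changed genes that rose was 33.5%, against 45.4% in DESeq2, 44.3% with the replicate block, 43.2% with the length trend removed, 51.1% with both, 27.8% with the groups compared alone, and 26.6% (without vehicle replicate 1) to 42.1% (without replicate 2 of the combined treatment) with 1 compared library left out. The cause was not tested.

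The replicate block gave 1528 genes, and 2282 with the length trend removed. The block gave 431 and 925 for FAC against vehicle, 740 and 1637 for both agents against oleic acid, and 1154 and 1520 for the genes passing in neither single agent. The numbers do not pair the libraries by the labels, and same-numbered deviations correlated at -0.07 to 0.61 over 18 pairs (13 over 0.1), with 1 of 3 vehicle and combined pairs over 0.1 and 2 of 3 highest with their own number.

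For FAC against vehicle (169 genes) DESeq2 gave 505, the groups alone 351, without those 2 libraries 672, the length correction 407, and single libraries left out 27 to 79. For both agents against oleic acid (314) the values were 775 in DESeq2, 19 with the groups alone, 652 with the length correction and 55 to 449 with 1 library left out. Genes passing with both agents and in neither single agent (298) were 845 in DESeq2, 51 with the groups alone, 618 with the length correction and 24 to 766 with 1 library left out. Both agents against FAC gave 1 gene in DESeq2 and 0 in every other setting run. Oleic acid against vehicle and the interaction gave 0 in every setting run.

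Of 1444 values of named genes under alternatives, 1134 kept their direction and side of the threshold, 267 lost the call, 30 gained it and 13 changed sign, none of them in a gene that passed with all libraries. HMOX1 was -0.0361 without replicate 3 of oleic acid and of both agents and -0.0344 with the groups alone and without the third combined library. PLIN2 was -0.0906 with the length trend removed and -0.0935 with the block too. COL1A1, a fibroblast marker, was 0.0945 without both libraries, 0.0544 with the length trend removed, 0.0532 with the block too and 0.0961 with the groups alone and without the third combined library. With 1 compared library left out, HMOX1 ran from -0.0342 (without the third combined library) to 0.528, ACSL4 from -0.0112 to 0.131, COL1A1 from -0.216 to 0.0957 and SORD2P from -0.207 to 0.101. Of 544 list counts, 308 stayed within 1.5 times. Replicates spread more than counting noise, and whether depth limits the calls was not tested.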
